A study of Mus musculus with 21 samples.

Results

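The regions described here are H3K4me3 peaks that were present in C2C12 cells on day 2 of differentiation and absent from the cycling lists consulted. They were chosen by overlap of at least 1 bp among the deposited peak lists. A peak of the day 2 frozen native list was called gained when it overlapped a peak in at least 2 of the other 3 day 2 H3K4me3 lists, and no peak of the pooled cycling list or of the lists of cycling replicates 1 and 3. The rule kept 215 of 15431 peaks of the frozen native list, or 1.39%. Presence in the day 2 lists and absence from the cycling lists are therefore what chose these regions and are not results about them.

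C2C12 is a mouse myoblast line that stops dividing and forms multinucleate myotubes when serum is withdrawn. CUT&RUN, which releases the DNA around an antibody-bound protein with a tethered nuclease, was carried out with antibodies to H3K4me3, to the proteasome activator PSME3 and with IgG, in 21 libraries of which 14 have a peak list and are used here. Cycling cells were kept in 20% FBS and frozen in 10% DMSO without fixation, with 3 replicates per antibody. Day 2 cells were grown to confluency and held for 48 h in 2% horse serum, and 1 library per antibody was made from each of 4 preparations: frozen native, fresh native, fresh crosslinked and frozen crosslinked, where crosslinked cells had received 0.1% formaldehyde for 5 min. All cells were of the same line, with no other genotype or agent named in the labels. The libraries came from whole cultures, so a stronger mark per cell and a larger number of cells that carry it cannot be told apart. The lists held 14372 to 20245 H3K4me3 peaks on day 2 and 18077, 40999 and 19365 in cycling replicates 1, 2 and 3, and since they hold no read counts the depth behind them is unknown. Cycling replicate 2 stood apart with a median peak width of 662 bp, against 1781 and 1784 bp in replicates 1 and 3, and the rule did not consult it by itself.

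H3K4me3 is laid down on nucleosomes around the start of transcribed genes, and its presence at a promoter goes with an active or poised gene. In myoblasts the determination factors MyoD and Myf5 are already present, and differentiation begins with induction of myogenin, a transcription factor of the same family that binds E-boxes together with MEF2 proteins at the promoters of contractile genes. The genes for the sarcomere, for calcium handling and for muscle energy supply then become active while the cells leave the cell cycle.

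The promoters of 6 muscle genes with highly enriched gained peaks are printed with that of Myog, to show the promoter sequence at starts within or beside a gained peak. Each holds 250 bases before the start and 50 after it, from RefSeq on GRCm38.p6, 5′ to 3′ on the strand of the gene. The windows of Mylpf and Tnni1 lay in the peak over all 300 bases and that of Smyd1 over 240, those of Myog, Tnnt2 and Tnnt1 over 105, 58 and 43, and that of Atp2a1 lay outside its peak. Capitals mark each E-box, a match to CANNTG, which reads the same on both strands.
Myog, chr1:134289754-134290053, plus strand: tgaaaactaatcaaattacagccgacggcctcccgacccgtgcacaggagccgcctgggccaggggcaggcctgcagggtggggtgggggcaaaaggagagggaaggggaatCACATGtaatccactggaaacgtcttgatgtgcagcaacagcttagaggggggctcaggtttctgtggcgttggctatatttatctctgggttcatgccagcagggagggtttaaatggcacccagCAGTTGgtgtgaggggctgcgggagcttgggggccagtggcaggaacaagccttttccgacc
Tnnt1, chr7:4515926-4516225, minus strand: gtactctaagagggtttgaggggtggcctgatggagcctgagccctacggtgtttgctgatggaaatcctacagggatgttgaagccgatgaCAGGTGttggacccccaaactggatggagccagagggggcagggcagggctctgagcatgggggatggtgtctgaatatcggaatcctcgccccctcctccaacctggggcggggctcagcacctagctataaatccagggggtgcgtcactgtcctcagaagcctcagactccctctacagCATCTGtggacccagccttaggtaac
Tnnt2, chr1:135836084-135836383, plus strand: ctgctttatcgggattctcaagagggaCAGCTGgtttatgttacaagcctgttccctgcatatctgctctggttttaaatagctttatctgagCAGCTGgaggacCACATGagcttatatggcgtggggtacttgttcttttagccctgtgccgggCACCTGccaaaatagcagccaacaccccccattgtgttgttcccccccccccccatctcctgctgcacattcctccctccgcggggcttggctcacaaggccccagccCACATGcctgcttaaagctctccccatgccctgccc
Mylpf, chr7:127211358-127211657, plus strand: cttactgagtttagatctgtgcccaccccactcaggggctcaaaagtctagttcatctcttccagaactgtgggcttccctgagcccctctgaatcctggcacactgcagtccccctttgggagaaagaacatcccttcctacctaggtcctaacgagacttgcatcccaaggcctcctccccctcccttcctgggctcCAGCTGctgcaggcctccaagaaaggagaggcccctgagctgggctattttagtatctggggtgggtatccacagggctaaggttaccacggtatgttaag
Smyd1, chr6:71262232-71262531, minus strand: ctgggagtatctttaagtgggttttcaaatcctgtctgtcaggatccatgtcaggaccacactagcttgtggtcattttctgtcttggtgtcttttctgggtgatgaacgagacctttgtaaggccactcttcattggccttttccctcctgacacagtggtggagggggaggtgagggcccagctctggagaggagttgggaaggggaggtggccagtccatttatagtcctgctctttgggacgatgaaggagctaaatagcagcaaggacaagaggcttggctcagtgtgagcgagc
Tnni1, chr1:135799171-135799470, plus strand: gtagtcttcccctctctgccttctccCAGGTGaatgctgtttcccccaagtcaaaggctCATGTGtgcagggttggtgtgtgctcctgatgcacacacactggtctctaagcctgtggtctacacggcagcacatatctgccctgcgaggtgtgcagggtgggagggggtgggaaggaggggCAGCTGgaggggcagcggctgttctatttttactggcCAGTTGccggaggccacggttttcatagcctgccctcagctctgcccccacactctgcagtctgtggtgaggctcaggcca
Atp2a1, chr7:126463024-126463323, minus strand: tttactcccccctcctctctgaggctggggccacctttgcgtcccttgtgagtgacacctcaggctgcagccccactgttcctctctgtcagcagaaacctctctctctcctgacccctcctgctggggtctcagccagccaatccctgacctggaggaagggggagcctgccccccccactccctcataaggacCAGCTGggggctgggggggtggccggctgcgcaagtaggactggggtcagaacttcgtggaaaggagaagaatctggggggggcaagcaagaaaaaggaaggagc
The E-boxes of the Myog promoter began 138 and 12 bases before the start. Tnnt2 had 5 E-boxes and Tnni1 4, Tnnt1 had 2, Mylpf and Atp2a1 had 1 each, and Smyd1 had none in this window. The sequence CAGCTG stood 51 bases before the start of Mylpf, 55 before that of Atp2a1 and 68 before that of Tnni1. None of the 7 windows held an exact match to the MEF2 box pattern used here. Stretches that depart from the pattern are not counted, so this does not show that a promoter lacks a MEF2 site. Myog was added to this set after its values were seen, and the promoters of Nck1 and Camk1g, which the same rule takes, are not printed because these genes are on no muscle list.

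Gene lists for muscle functions and for other cell types were used to describe where the gained peaks lay. A peak was placed at a gene when the transcription start lay in it or within 1 kb. For genes whose strand the reference does not give, both ends of the gene were used, so that a 3′ end can count as a start. Of 34614 genes, 99 or 0.286% had a gained peak at the start, and of 172 protein-coding genes on the muscle lists 33 did, or 19.2%. Of the 99, 12 also had at a start a kept peak, one that cycling cells carried too, Atp2a1 and Tpm3 among them. A further 6, Aknad1, Arpp21, Atcayos, Fndc5, Gm29992 and Hdac9, had within 1 kb of the start a cycling peak in the lists consulted but no kept peak. No gained peak lay at the start of any of the 77 genes on the lists for the cell cycle, neurons, adipocytes, bone and cartilage, blood and endothelium, smooth muscle or fibroblasts. Of these 77 genes, 46 had kept peaks. At the share of 0.286% over all genes hardly any would be met among 77, so 0 is near that share and is not a result about these lists. The lists were written with earlier results of these data known, and the counts carry no test.

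**Figure D1:**
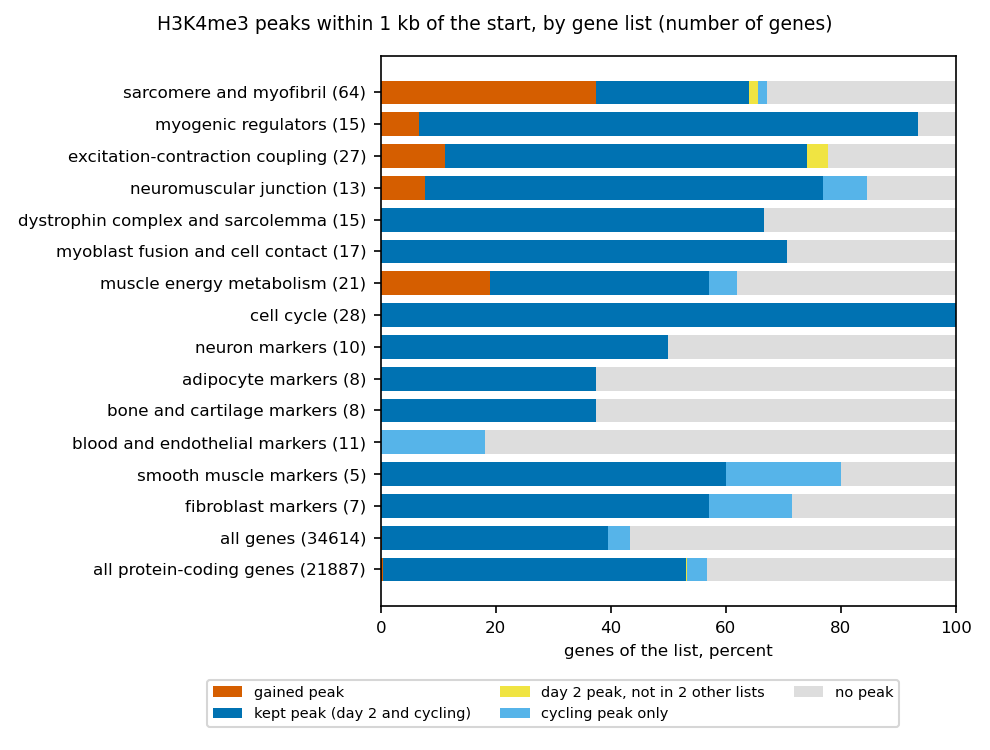
Horizontal bars give the percent of genes of each list, with the number of genes in parentheses, by the H3K4me3 peak within 1 kb of the start. Gained peaks (orange) make up 37.5% of the sarcomere list and 0% of the cell cycle list, where kept peaks (blue) stand at all 28 genes. Over all genes the share is 0.286%, so 0% of a list of this size is near it.

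The sarcomere and myofibril list held most of these genes. Of its 64 genes, 24 had a gained peak at the start, 17 had only kept peaks, and 21 had none in the frozen native list or the cycling lists consulted. Of the other 2, Nebl had a cycling peak only. Tnni2 had a frozen native peak that overlapped a peak in 1 other day 2 list, although 2 other lists had a peak within 1 kb of its start or end. The thick filament was represented by Myh3, the embryonic myosin heavy chain, and by the light chains Myl1 and Mylpf. The heavy chains of mature fibres, Myh1, Myh2, Myh4 and Myh7, and the perinatal Myh8 had no peak at the start. The thin filament was represented by the sarcomeric actins Acta1 and Actc1, the tropomyosin gene Tpm3, and 5 troponin genes: Tnnt1, Tnnt2 and Tnnt3 for the tropomyosin-binding subunit, Tnni1 for the inhibitory subunit of slow fibres and Tnnc2 for the calcium sensor of fast fibres. Tpm3 also had a kept peak at another start. Mybph encodes a myosin-binding protein, and Myom1, Myom2 and Myom3 encode proteins of the M-band, where thick filaments are held together. Lmod2 and Lmod3 encode actin nucleators, Unc45b a myosin chaperone, Smyd1 a methyltransferase needed for myofibril assembly and Klhl40 a protein that stabilises thin filaments. Myoz2, Smpx and Ankrd23 were also among these genes.

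Fold enrichment is the ratio of a peak's signal to the background that the peak caller estimated, and its scale differs between lists. At Myog the gained peak had a fold enrichment of 5.41 in the frozen native list, 2.96 in fresh native, 3.44 with fresh crosslinking and 3.88 with frozen crosslinked cells. It was 3127 bp wide and began 55 bp before the start, and none of the 4 cycling lists, replicate 2 included, had a peak within 1 kb of the start. Myog was the only one of 15 myogenic regulators with a gained peak at the start, and 13 others, among them Myod1 and Myf5, carried the mark in both states. Myf5 had a fold enrichment of 10.9 in the frozen native list and 10.7 in the pooled cycling list. Myod1 stood at 7.89 and 9.90 in the same lists. The myogenin gene thus differed from its paralogs in the absence of a cycling peak, which the rule itself required.

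Among the contractile genes, Tnnt1 had the most enriched gained peak, at 7.19 in the frozen native list, 3.69 in fresh native, 5.29 in fresh crosslinked and 5.68 in the frozen crosslinked list. Tnnt2 followed with 6.91, 4.27, 4.21 and 4.92 in the same order. Mylpf had 6.04, 3.14, 3.12 and 7.26, and was one of 6 gained peaks at muscle-list starts with a peak in cycling replicate 2, where it stood at 2.62. The value of 7.26 belongs to a peak of 8534 bp that also covered a neighbouring kept peak. The skeletal actin gene Acta1 had 4.95, 3.11, 3.31 and 3.11. The embryonic myosin gene Myh3 had 4.35, 3.41, 3.63 and 3.65, over a peak of 5131 bp. The cardiac actin gene Actc1, which is expressed in developing skeletal muscle, had a weaker peak of 3.51, 2.93, 2.76 and 2.89. Over all 33 peaks at muscle-list starts the frozen native value ran from 3.02 at Pgam2 to 7.19 at Tnnt1, with a median of 4.57.

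**Figure D2:**
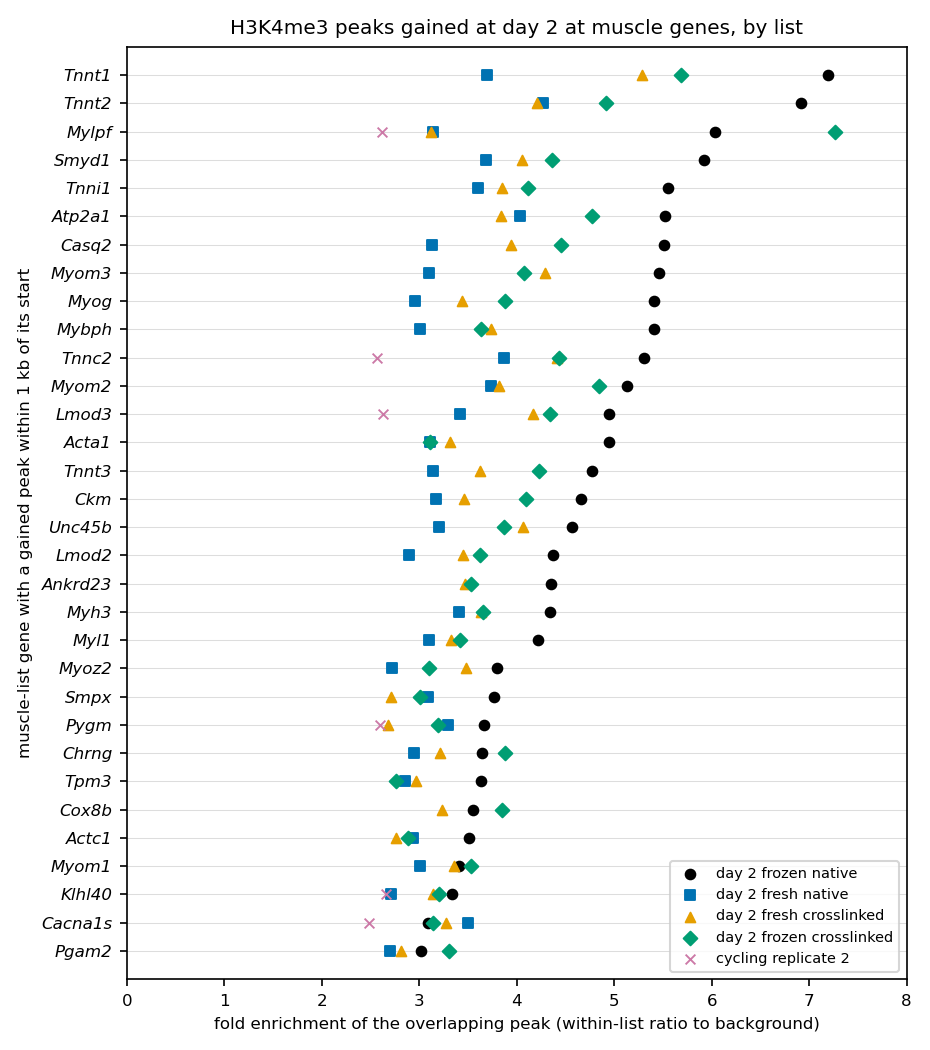
Each row is one of the muscle-list genes with a gained peak within 1 kb of its start, and each mark is the fold enrichment (horizontal axis) of the overlapping peak in 1 list. Of the 33 genes, 1 is not drawn. Ankrd23 and Cox8b have no mark in the fresh native list, the others drawn have one in every day 2 list, and 6 have a cross for cycling replicate 2.

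The genes for excitation and calcium handling contributed 3 of 27. Atp2a1, the calcium pump of the sarcoplasmic reticulum in fast fibres, had a fold enrichment of 5.52 in frozen native, 4.03 in fresh native, 3.83 in fresh crosslinked and 4.77 in the frozen crosslinked list, where both crosslinked values belong to peaks that also covered a neighbouring kept peak. Casq2, a calcium-binding protein of the same store, had 5.51, 3.13, 3.94 and 4.45. Cacna1s, the voltage sensor of the T-tubule, had 3.09, 3.50, 3.27 and 3.15, with 2.48 in cycling replicate 2. A second, narrower peak of 454 bp next to the start of Atp2a1 overlapped cycling peaks and was not gained. The neuromuscular junction list gave 1 of 13, Chrng, the fetal subunit of the acetylcholine receptor, at 3.65, 2.94, 3.21 and 3.88. The genes for the other subunits on this list, Chrna1, Chrnb1 and Chrnd, had kept peaks. Chrne, the adult counterpart of Chrng, had a peak in cycling replicate 2 alone, at 2.65.

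Muscle energy metabolism contributed 4 of 21 genes. The creatine kinase gene Ckm had a fold enrichment of 4.66 in frozen native, 3.17 in fresh native, 3.46 in fresh crosslinked and 4.09 in the frozen crosslinked list. The glycogen phosphorylase gene Pygm had 3.67, 3.30, 2.68 and 3.19, the phosphoglycerate mutase gene Pgam2 3.02, 2.70, 2.82 and 3.31, and Cox8b, a muscle subunit of cytochrome oxidase, 3.55, no peak, 3.23 and 3.85. No gained peak lay at the start of any of the 15 genes of the dystrophin complex list or the 17 of the fusion list, of which 10 and 12 had kept peaks. For lists of this size 0 is near the share of 0.286% over all genes.

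Of the 9 muscle microRNA genes, Mir1a-1, Mir1a-2 and Mir206 had a gained peak over the hairpin or within 1 kb of it. The share over all microRNA genes was not counted in this way, so the count only describes these genes. MiR-1 and miR-206 are muscle microRNAs that rise as myoblasts differentiate. The peak over Mir1a-1 and its host gene Mir1a-1hg was 5595 bp wide, the second widest of all gained peaks, with fold enrichments of 3.80, 3.19, 3.46 and 3.19 in frozen native, fresh native, fresh crosslinked and frozen crosslinked cells. The peak over Mir1a-2, in its host gene Mir133a-1hg, was 3224 bp wide with 4.71, 3.49, 3.57 and 4.01. The peak near Mir206 was weaker, 922 bp wide with 2.95 in frozen native, no fresh native peak, 2.79 and 3.46 in the crosslinked preparations. It lay in Lincmd1, 894 bp before the hairpin on chromosome 1 (20679010 to 20679082). The mature product of this hairpin is shown with its seed, bases 2 to 8, in capitals.
miR-206-3p, chr1:20679055-20679076, plus strand, GRCm38.p6: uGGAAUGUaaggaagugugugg

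Gained peaks were weak and narrow beside the rest of the list. Their fold enrichment in the frozen native list had a median of 3.74 (range 1.82 to 11.5) and their width a median of 1004 bp (157 to 5662). The 13943 kept peaks, which met the same requirement on day 2 lists but overlapped a cycling peak, had medians of 13.9 and 1970 bp. The other preparations gave the same order, with medians of 3.03 against 6.39 in fresh native, 3.10 against 7.67 in fresh crosslinked and 3.33 against 9.46 in the frozen crosslinked list. The rule asks for absence from the cycling lists, so these values also describe what it selects. Among the gained peaks, those at muscle-list starts were the widest group, with a median of 2369 bp (n = 33). Peaks at other starts had a median of 1173 bp (n = 59), and those away from starts of 688 bp (n = 123). Peaks at muscle-list starts made up 14 of the 40 most enriched and 10 of the 20 widest gained peaks.

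**Figure D3:**
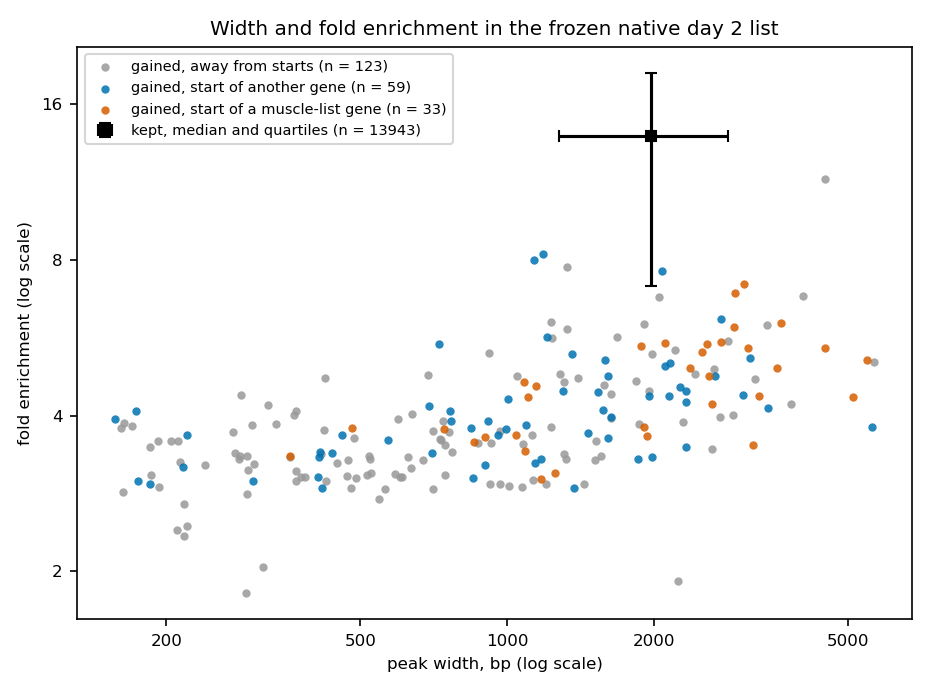
Each point is a gained peak by its width (horizontal, log scale) and fold enrichment (vertical, log scale) in the frozen native list. The black square and bars give the median and quartiles of the 13943 kept peaks. Peaks at muscle-list starts (orange) lie toward the wide end, with a median width of 2369 bp, and most peaks away from starts (grey) are narrower.

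The edges of the rule were gradual. Of the 215 gained peaks, 107 overlapped all 3 other day 2 lists, with a median fold enrichment of 4.46 and width of 1838 bp. The 108 found in exactly 2 had 3.35 and 484 bp, while the 99 peaks just outside the rule, without a cycling peak but found in 1 other list, had 3.10 and 363 bp. For 13 gained peaks, Mylpf and Atp2a1 among them, a peak of another day 2 list also covered a neighbouring peak that cycling cells carried, and 10 of the 13 would be in fewer than 2 other lists without such peaks. The fresh native list had a peak at 114 gained sites, against 80.1% of all frozen native peaks. Peaks in fresh crosslinked and frozen crosslinked cells overlapped 213 and 210. At muscle-list starts 31 of 33 were in all 3 other lists, at other starts 31 of 59 and away from starts 45 of 123.

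Some muscle genes fell just outside because a broad day 2 peak touched a small cycling peak. The peak at Mymk, the gene of the fusion protein myomaker, was 2694 bp wide with a fold enrichment of 8.37 in frozen native, 4.17 in fresh native, 5.20 in fresh crosslinked and 5.52 in the frozen crosslinked list. It shared 553 bp with a pooled cycling peak of 2.57, met no peak of replicates 1 or 3, and overlapped a replicate 2 peak of 3.44. At Ttn, the gene of titin, the day 2 values were 6.94, 3.32, 4.18 and 4.56 over 3078 bp, and 628 bp were shared with a pooled cycling peak of 2.15 and 370 bp with a replicate 3 peak of 2.65. Like Mymk, Klhl41 and Stac3 met only a pooled peak among the lists consulted, over 431 and 126 bp, and had 2.64 and 2.54 in replicate 2. The day 2 peak at Stac3 was only 922 bp wide. Within 1 kb of an end of Stac3, unlike Mymk and Klhl41, there were cycling peaks of 2.68 in the pooled list and 3.23 and 2.97 in replicates 1 and 3. Mymx, the gene of the second fusion protein, differed, since a pooled cycling peak of 14.7 overlapped its day 2 peak of 4.76 over 1877 bp. When other peaks had to cover at least 50% of the day 2 peak to count as overlapping, 38 muscle-list genes had a gained peak at the start in place of 33.

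In cycling replicate 2, 39 of the 215 sites had a peak, or 18.1% (95% Clopper-Pearson interval 13.2 to 24.0), against 96.2% of all frozen native peaks. There the fold enrichment had a median of 2.65 (1.41 to 3.6) and the width a median of 365 bp. The share was 15.2% (8.58 to 24.2) at starts and 20.3% (13.6 to 28.5) away from them. The reads of replicate 2 entered the pooled list that the rule used, so this share is not independent of the rule, and intervals cover counting error only. At muscle-list starts the 6 genes were Mylpf, Tnnc2, Lmod3, Pygm, Klhl40 and Cacna1s, each with a replicate 2 value between 2.48 and 2.66.

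A smaller share of gained peaks than of the whole list lay at starts. Of the 215, 92 were at a start (42.8%, interval 36.1 to 49.7), against 73.1% of all frozen native peaks and 77.9% of kept peaks. Another 98 were inside genes (45.6%) and 25 outside (11.6%), compared with 14.2% and 7.95% of kept peaks. At 76 of the 92, the start was one whose strand is known. Peaks at starts had a median width of 1363 bp, those inside genes 656 bp and those outside 745 bp. The median distance to the nearest peak of the consulted cycling lists was 11882 bp, with 69 sites within 5 kb and 32 beyond 50 kb.

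The most enriched gained peak lay inside Smg6, which encodes an endonuclease of nonsense-mediated decay, at chr11:74981603-74986088, with 11.5 in frozen native, 5.15 in fresh native, 6.01 in fresh crosslinked and 7.2 in the frozen crosslinked list. Next came the start of Nck1, an adaptor of the actin cytoskeleton, at 8.22, 2.97, 3.95 and 4.85, and that of the uncharacterised gene Gm29992 at 8.0, 3.03, 2.75 and 5.26. Nck1 also had a kept peak at another of its starts. Camk1g, a calmodulin-dependent kinase, had 7.61, 3.42, 4.34 and 4.89 at its start. Tnnt1 and Tnnt2 came next. The 8th to 10th were peaks inside Srl, the gene of sarcalumenin, at 6.81, inside Zfp106 at 6.79, and at the start of Hjv, the gene of hemojuvelin, at 6.16 in the frozen native list. Of these 10, Tnnt1 and Tnnt2 were at muscle-list starts, and the peak in Srl was inside a muscle-list gene.

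The 5 widest were a peak inside Myl1 (5662 bp), that over Mir1a-1 (5595 bp), and those at Myom2 (5481 bp), Myh3 (5131 bp) and Mybph (4499 bp). Myl1 thus carried a pair of gained peaks, 4672 bp apart, the narrower of them at the start. In all, 9 gained peaks lay inside muscle-list genes away from their starts. Besides those in Srl and Myl1 they included peaks in Myl4, Neb, Klhl40 and Mef2c and 2 in Bin1.

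Some genes with a gained peak at the start are known from muscle but stand on no list, and they are named here after their values were seen. Trim72, a membrane repair protein, had a fold enrichment of 4.78 in the frozen native list, and Trim63, the ubiquitin ligase MuRF1, 4.11. The small heat shock protein gene Hspb3 had 3.62, the irisin precursor gene Fndc5 3.30 and the ubiquitin ligase subunit gene Asb2 3.30. The peak at Fndc5 overlapped one of cycling replicate 2 and lay 49 bp from a peak of the cycling lists consulted. Of the 99 genes with a gained peak at the start, 81 were protein-coding.

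Several members lay close together. Within 100 kb of each other were 16 pairs of gained peaks. Tnni1 and Tnnt2, which are neighbours on chromosome 1, had gained peaks 34750 bp apart, and Mybph and Myog had theirs 92619 bp apart. Such pairs are not independent regions.

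Gained peaks extended mainly into the gene. For 36 of them exactly 1 strand-known start lay within the peak. Around these starts the peak reached a median of 138.5 bp upstream and 1557.5 bp downstream, and a median of 91.8% of its length lay downstream. For 6165 kept peaks of the same kind the reach was 589 bp upstream and 1437 bp downstream, with 71.8% downstream. More than 80% lay downstream in 25 of 36 gained peaks (69.4%) and in 28.1% of kept peaks. The peak at Myh3 began 54 bp before the start and ran 5076 bp into the gene, and that at Lmod2 began 16 bp before it and ran 3273 bp in. The share downstream was 92.0% at 15 muscle-list genes and 86.2% at 21 others. Kept peaks in the quartile range of width of the gained ones had a median of 71.3% downstream, those in their quartile range of fold enrichment 70.6%, and those at CpG-poor starts with a ratio of at most 0.6 had 76.5%.

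**Figure D4:**
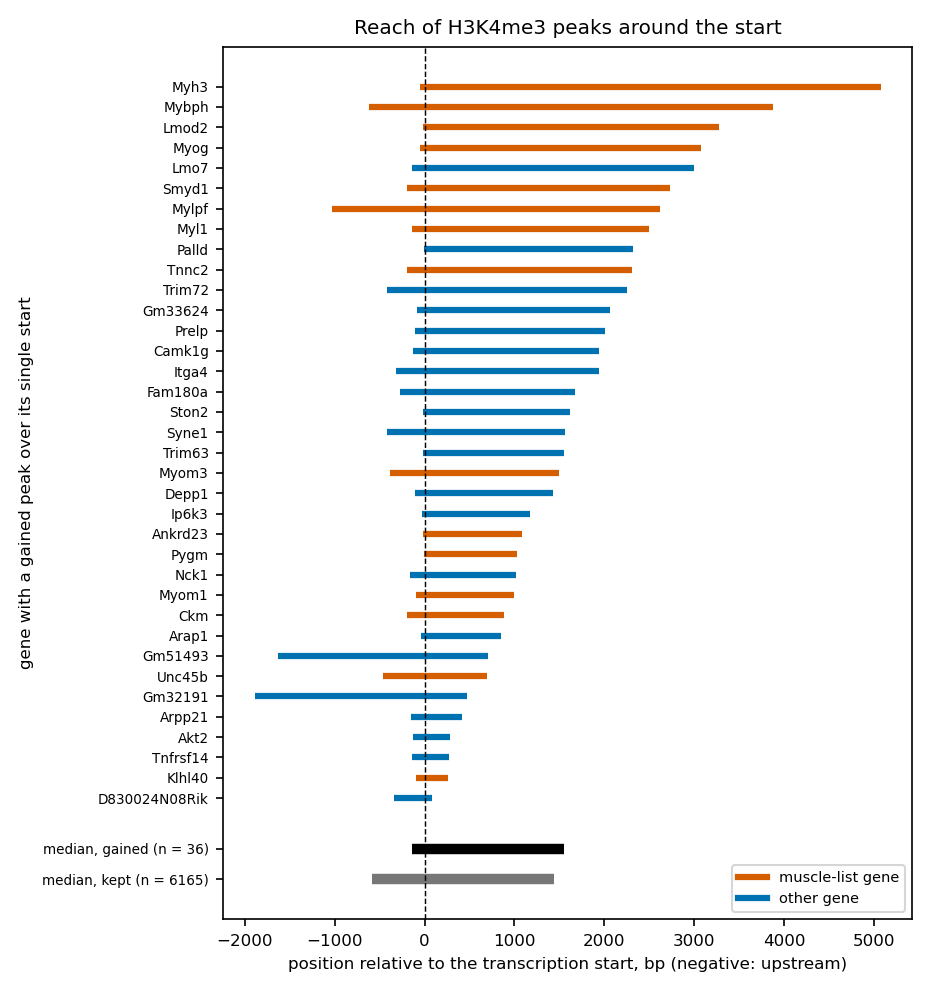
Each bar spans a gained peak relative to its single strand-known transcription start at 0 (horizontal axis, bp), orange for muscle-list and blue for other genes. The bars at the bottom give the medians, 138.5 bp upstream and 1557.5 bp downstream for the 36 gained peaks, and 589 and 1437 bp for the 6165 kept peaks.

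The promoters of genes with a gained peak within 1 kb of the start were poor in CpG. Over 70 promoters of 64 protein-coding genes the observed over expected CpG ratio, which is near 1 where CpG is not depleted, had a median of 0.229, and 4.29% were above 0.6. In 45 of the 70 the 300-base window overlapped the gained peak itself, and their median was 0.211. For 11016 promoters with a kept peak the median was 0.793 and 78.1% were above 0.6, and for all 21263 promoters the values were 0.567 and 47.6%. At muscle-list genes the median was 0.209 and at the other genes with gained peaks 0.292, so the low ratio was not confined to the listed muscle genes. Sequence played no part in the choice of the peaks.

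**Figure D5:**
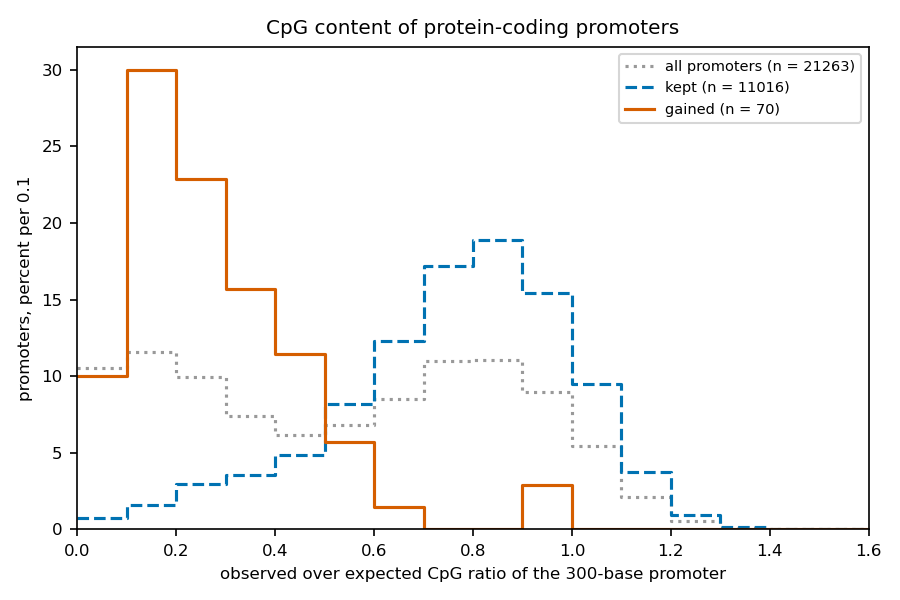
Lines give the percent of protein-coding promoters (vertical axis) in each step of 0.1 of the observed over expected CpG ratio (horizontal axis). Promoters with a gained peak within 1 kb of the start (orange) have a median of 0.229, those with a kept peak (blue dashes) 0.793 and all promoters (grey dots) 0.567.

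E-boxes and MEF2 boxes were found in a larger share of these promoters than of promoters with a kept peak, and no test was made. On either strand of the 300-base window, CANNTG was found in 88.6% of gained promoters, against 60.9% of kept and 69% of all promoters. CAGCTG, one form of CANNTG, was found in 47.1%, against 14.2% and 15.6%, and CAGGTG, another form, in 28.6%, against 16.2% and 19.7%. The MEF2 box was found in 17.1%, against 1.31% and 2.74%, and the CArG box, the site of serum response factor, in 7.14%, against 1.31% and 1.52%. TATAAA was found in 17.1%, against 6.18% and 12.6%, while GGGCGG, a GC box, was found in 15.7%, against 68.3% and 46.2%. In the 45 promoters whose window overlapped the gained peak itself, CANNTG was found in 93.3% and CAGCTG in 48.9%. The MEF2 box was in 13.3% and the CArG box in 4.44% of these 45. Among all promoters with a CpG ratio of at most 0.6, which are closer in composition, CANNTG was found in 78.5%, CAGCTG in 18%, the MEF2 box in 4.20% and GGGCGG in 20.8%. CAGGTG was found in 22.2% of these, nearer to its 28.6% among gained promoters. TATAAA was found in 19% of these CpG-poor promoters, above its share of the gained ones. These are counts of letters in a short window and do not show that a factor was bound. Some genes have several overlapping windows, and 3 of those with a MEF2 box belong to Arpp21. Counted once per gene, the MEF2 box was found at 15.6% of genes with a gained peak, against 1.52% with a kept peak, and CAGCTG at 50%, against 15.8%. At the 41 genes whose window overlapped the gained peak itself, the MEF2 box was found at 9.76% and CAGCTG at 51.2%. The CArG box was at 4.88% of these 41, against 7.81% of all genes with a gained peak. By gene the MEF2 box was found at 13.8% of the muscle-list genes and 17.1% of the others, and CAGCTG at 58.6% and 42.9%.

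The PSME3 lists were not used by the rule, but the rule required absence from the cycling H3K4me3 lists. The paper reports that most PSME3 peaks of cycling cells also carry H3K4me3. A lower cycling PSME3 share at gained than at kept peaks is therefore partly set by the selection, and the comparison is not independent of it. In the pooled list of cycling cells, 9 of the 215 gained sites had a PSME3 peak, or 4.19% (interval 1.93 to 7.80), against 28.1% of all frozen native peaks and 30.4% of kept peaks. Each cycling replicate had a PSME3 peak at 7 gained sites (3.26%), against 5.72%, 4.63% and 18.4% of kept peaks in replicates 1, 2 and 3. The difference averaged −6.34 ± 7.67 percentage points (SD, n = 3) and had the same sign in 3 of 3 replicates, with p = 0.25 in a two-sided exact sign-flip permutation test, the smallest p that 3 replicates allow. Within classes of equal width it was −0.918, 0.269 and −8.60 in replicates 1, 2 and 3, so the sign turned in replicate 2 and the mean of −3.08 came mostly from replicate 3, with p = 0.5 in the same exact test. Without replicate 3 the difference not split by width averaged −1.92. The 7 gained sites were the same in each replicate, and all had a day 2 PSME3 peak, as described below. The gained shares per replicate, those within width classes included, rest on these 7 sites alone. At the 33 muscle-list starts there was no PSME3 peak in the pooled list.

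Of the day 2 PSME3 lists, at least 1 had a peak at 7 gained sites, against 1.22% of all frozen native peaks, and all 4 had one at 5 sites, against 0.0454%. The 5 were inside Camk1d, Lars2, AY036118 and Gm36876 and outside genes on chromosome 3, and the other 2, inside Gm46595 and Zc3h7a, were in 3 of the 4 lists. All 7 also had a PSME3 peak in each cycling replicate. None was at a start, and they ranked 135 to 215 of 215 in H3K4me3 fold enrichment, with values of 1.82 to 3.47. The weakest were the peaks in AY036118 at 1.92 and in Gm36876 at 1.82. The other 2 of the 9 sites with pooled cycling PSME3, at Hdac9 and inside Abtb2, had a PSME3 fold enrichment of 2.75 and 2.88 and no day 2 PSME3 peak. Without the 5 sites shared by all 4 day 2 PSME3 lists, 210 gained peaks remained and 4 had a pooled cycling PSME3 peak (1.90%), and none of the 92 peaks at starts was lost. The other 2 of the 7 stayed in, so each cycling replicate still had a PSME3 peak at 2 of the 210. The part of the 5 sites in the PSME3 shares was measured by leaving them out, and the IgG libraries were not used here.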

How the data were processed

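CUT&RUN peak lists of 14 libraries and 2 pooled lists of cycling cells were used. Per the labels and the methods, the authors used Trim Galore for trimming, Bowtie2 for alignment, the build mm10 and MACS2 for peaks, and versions and options are not given in the sources used here. The deposited lists hold for each peak the enrichment as a ratio (fold) over background, together with p-values and q-values as −log10, and list only peaks with q below 0.1. A deeper library passes this limit at weaker sites, and no depth is given, so presence and absence depend on it. IgG libraries were not used here.

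The members and gene lists were chosen with earlier results of these data known. Overlaps (1 bp), shares with 95% Clopper-Pearson intervals, and the exact sign-flip test over replicates were computed with pandas 2.3.3, scipy 1.17.1 and numpy 2.4.6 under Python 3.11.15, and the overlap code was tested on simulated data. Replicates are separate libraries and p-values measure their spread. Genes (34614, of which 27025 have a strand-known start) and sequences came from RefSeq GRCm38.p6, which is mm10. The MEF2 and CArG boxes are matched with degenerate A or T positions.

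Named were list genes with a gained peak at the start, the 10 most enriched, the 5 widest, those with PSME3 and 10 myogenic genes, promoters being printed by fold enrichment. A gene and a peak that this rule takes are not reported here. Alternatives covered the overlap, q-value, number and choice of lists, cycling lists consulted, distances, gene set and PSME3 list. The alternative without places shared by all 4 day 2 PSME3 lists was chosen after the data were seen.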

Additional observations from a re-analysis of the deposited data

How the results depend on the processing

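The gained set is a list of weak peaks, and its size changed most with the number and choice of day 2 lists. It held 215 peaks, 214 and 184 at q-values of at most 0.05 and 0.01, and 171 to 314 under 13 of 16 alternatives. It fell to 107 when all 3 other day 2 lists had to share the peak, when the median width was 1838 bp and 57.9% lay at starts. Leaving out 1 of the other day 2 lists or of cycling replicates 1 and 3 at a time gave 109 peaks without fresh crosslinked, 112 without frozen crosslinked and up to 226 otherwise, with median widths from 981.5 to 1677 bp (1677 and 1622.5 bp without those 2 lists) and start shares from 41.2% to 57.1%. Without the pooled cycling list there were 288 peaks, with a median width of 860 bp and 38.2% at starts. The median width was 671.5 bp with at least 1 other list, 1342.5 bp with 50% overlap and 1276.5 bp by peak centre. With starts within 3 kb the start share was 50.7%. The share with a peak in cycling replicate 2 was 40.3% with 50% overlap and also by peak centre, 36.1% without the pooled list and 0 where replicate 2 had to lack a peak. The PSME3 share was 1.90% without the places common to all 4 day 2 PSME3 lists, an alternative added after the data were seen. Muscle-list genes with a gained peak at the start numbered 27 to 41 over 16 alternatives, and 44 had a gained peak anywhere in the gene or within 3 kb. The PSME3 difference stayed negative in all 19 alternatives (mean −8.82 to −1.92 percentage points, the latter without PSME3 replicate 3). No paired analysis was possible between cycling and day 2 libraries because the day 2 libraries carry no replicate numbers. The PSME3 difference was taken within each cycling replicate.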
